A study of Rattus norvegicus with 18 samples.

Results

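The RT1 class I genes are the class I major histocompatibility genes of the rat, and they were examined here together with the genes that supply them with peptide. The members are every row of the count table whose gene name starts with RT1-A, RT1-C, RT1-M, RT1-N, RT1-O, RT1-S or RT1-T, and all rows of B2m, Tap1, Tap2, Tapbp, Nlrc5, Psmb8, Psmb9 and Psmb10. This gave 42 of the 34873 rows. Of these, 33 are RT1 class I rows, all on chromosome 20, and 9 are rows of the loading and processing genes, because Tap2 is listed in 2 rows. The table classes 24 of the class I rows as protein-coding, 8 as pseudogenes and 1 as a processed transcript.

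A class I molecule is a heavy chain, encoded by an RT1 class I gene, held together by the light chain beta-2 microglobulin (B2m). The proteasome cuts cellular proteins into peptides, and the immunoproteasome subunits Psmb8, Psmb9 and Psmb10 replace the standard catalytic subunits when immune signals are present. The transporter formed by Tap1 and Tap2 moves the peptides into the endoplasmic reticulum, where tapasin (Tapbp) joins the transporter to the empty heavy chain. Nlrc5 is the transcriptional activator of these genes, and interferon and NF-κB also act on their promoters. In healthy brain the level of class I molecules is low, and it is known to be higher in microglia and endothelium than in most neurons.

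RNA-seq was done on rat brain in 18 libraries, 6 in each of 3 groups. The CLCF1 group has the genotype label CLCF1knock-down and inhaled carbon monoxide (CO), the CO group is wild type and inhaled CO, and the NC group is wild type with no treatment named. Per the series' design text, CO was given at 1000 ppm for 40 min and then 3000 ppm for 20 min, carboxyhaemoglobin had to exceed 60%, and CLCF1 was knocked down or overexpressed by lentivirus in bone-marrow-derived macrophages. Macrophages of that kind were also injected into rats after liposome treatment, and the text does not say which of them carried the knock-down or which groups received them. The series title places the study in CLCF1 and NF-κB signalling, clearance of dead cells by macrophages and brain damage after CO. The labels give no strain, age, sex, time point or brain region. They do not state that each library is a separate animal, and the p-values then speak only of library-to-library spread, part of which may be technical.

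The libraries held 15.11 to 20.34 M counts. Clcf1 itself had 0, 0.5 and 3 counts (lowest, median, highest) in CLCF1 libraries, 80, 95.5 and 118 in CO libraries and 1, 2.5 and 7 in NC libraries, so the gene named by the knock-down label was low in the CLCF1 group and in the NC group alike. The zeros of the table follow a pattern within groups. In 42660 cases a row had no count in libraries 1 and 2 of a group, and in 0 of them did libraries 3 to 6 of that group have one, whereas libraries 1 and 2 of the other groups had a count in 8.90% of the same comparisons. Among the members this held in all 25 such cases, while the other groups had counts in 36% of comparisons. How libraries 3 to 6 were made was not tested, and each member's result that passed a test is therefore also given from libraries 1 and 2 alone. If libraries 3 to 6 were not made independently of libraries 1 and 2, the p-values over all 6 libraries are too small. All levels below are counts scaled to library size with TMM factors (CPM), and triplets of values are the lowest, the median and the highest library of a group.

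Class I members were detected in brain in every group, but not the same ones. At least 1 count was found for 36 of the 42 members in CLCF1 libraries, 34 in CO libraries and 31 in NC libraries. All 9 loading and processing rows had counts in every library of every group. The differences lay in the class I rows, of which 27, 25 and 22 of 33 had a count in the CLCF1, CO and NC groups. Counts in every library of the group were found for 14, 21 and 17 of them, so the order of the groups depends on the criterion. In 4 rows, RT1-M2, RT1-M3-2-ps, RT1-M10-3-ps and RT1-M1-1-ps, no library had a count, and 9 class I rows had counts in 1 or 2 groups only. The filter on low counts kept 26 members, 17 class I rows and the 9 loading rows, and the other 16 were not tested.

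**Figure D1:**
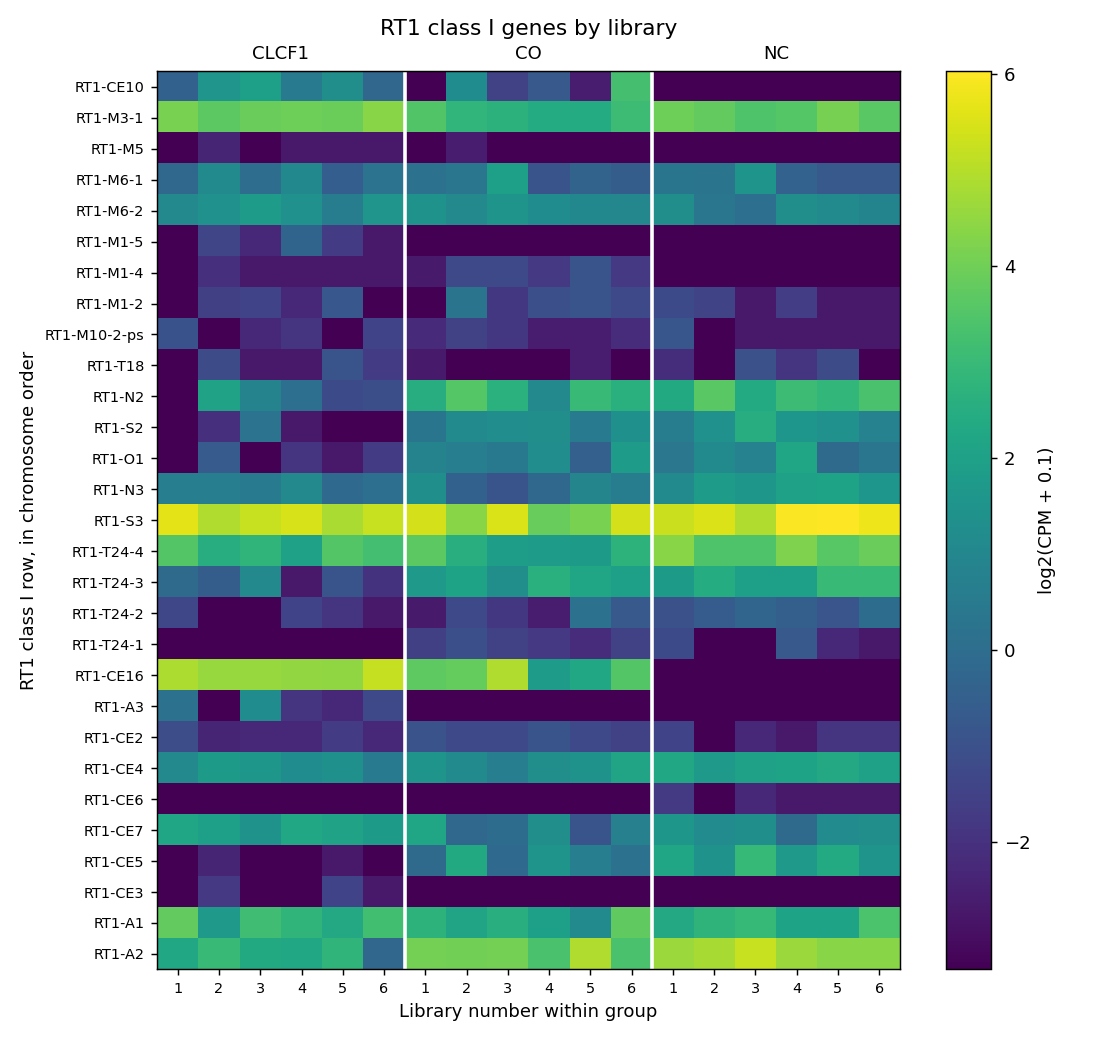
Level of the 29 RT1 class I rows with any count, in chromosome order from top to bottom, in each of the 18 libraries, as log2 of CPM plus 0.1. RT1-S3 is bright throughout, RT1-CE16 and RT1-CE10 are at 0 in all 6 NC libraries, and RT1-CE5 has 3 counts in all in the CLCF1 group.

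The class I rows that passed a test went in both directions, and of the loading and processing rows those that passed were higher in the CLCF1 group. In CO against NC, 5 of the 26 members passed edgeR's quasi-likelihood test at an adjusted p of 0.05, 2 higher and 3 lower. Of all 16581 genes tested, 12.7% passed, 6.32% higher and 6.4% lower. In CLCF1 against CO, 10 passed, 4 higher and 6 lower, where 17% of all genes did, 8.63% higher and 8.34% lower. In CLCF1 against NC, 10 passed as well, 3 higher and 7 lower, where 9.26% of all genes did, 4.43% higher and 4.84% lower. The median log2 fold change of the class I rows tested was -0.04 in CLCF1 against CO, -0.79 in CLCF1 against NC and -0.41 in CO against NC, and that of all genes tested was 0.0018, 0.011 and 0.0066. The loading and processing rows had medians of 0.55, 0.22 and -0.27 in the same order. The 3 comparisons share their groups pairwise, so their fold changes are not independent of each other. In libraries 1 and 2 alone, 0 members passed in CLCF1 against CO, 1 in CLCF1 against NC and 1 in CO against NC, where 0.0476%, 0.0119% and 0.0238% of all genes did. At an unadjusted p under 0.05 these counts were 5, 6 and 2. The share of all genes at that cut is not given here, so these counts are not set against it. DESeq2 on all libraries called 12, 11 and 6 members, where it called 21.6%, 14.1% and 17.2% of all genes.

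Promoters of classical class I genes are known for an NF-κB site, and those of many antigen-presentation genes for interferon response elements. The windows run from 250 bases before to 50 bases after the gene start (RefSeq, GRCr8), and capitals mark matches to the interferon response element (GAAA, any 2 letters, GAAA) or to the NF-κB consensus on either strand. B2m and Tapbp are shown because they were higher in CLCF1 than in CO libraries. Psmb8 was higher too, and its window, not shown, has an interferon match and no NF-κB match. RT1-CE16, RT1-CE5, RT1-A2 and RT1-N2 stand for the heavy chains that passed a test, the first higher and the others lower in CLCF1 than in NC libraries.
B2m (chr3:129549080-129549379, plus strand): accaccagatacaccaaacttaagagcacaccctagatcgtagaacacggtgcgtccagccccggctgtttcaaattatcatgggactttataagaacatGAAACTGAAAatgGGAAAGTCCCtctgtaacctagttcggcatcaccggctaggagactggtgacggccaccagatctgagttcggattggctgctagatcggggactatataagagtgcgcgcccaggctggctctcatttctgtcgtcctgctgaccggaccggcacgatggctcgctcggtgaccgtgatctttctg
Tapbp (chr20:4967828-4968127, minus strand): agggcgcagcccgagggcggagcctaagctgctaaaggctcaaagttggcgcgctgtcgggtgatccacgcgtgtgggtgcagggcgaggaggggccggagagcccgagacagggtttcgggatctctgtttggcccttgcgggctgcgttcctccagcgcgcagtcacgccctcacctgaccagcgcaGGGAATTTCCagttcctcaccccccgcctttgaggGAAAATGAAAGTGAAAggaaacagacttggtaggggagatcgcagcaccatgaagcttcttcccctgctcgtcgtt
RT1-CE16 (chr20:3265394-3265693, minus strand): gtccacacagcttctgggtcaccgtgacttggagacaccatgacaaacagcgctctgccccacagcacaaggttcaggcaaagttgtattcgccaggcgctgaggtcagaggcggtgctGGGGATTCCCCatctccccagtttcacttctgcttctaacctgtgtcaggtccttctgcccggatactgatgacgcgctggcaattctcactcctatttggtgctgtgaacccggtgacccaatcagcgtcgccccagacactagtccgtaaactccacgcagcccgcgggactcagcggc
RT1-CE5 (chr20:3484041-3484340, minus strand): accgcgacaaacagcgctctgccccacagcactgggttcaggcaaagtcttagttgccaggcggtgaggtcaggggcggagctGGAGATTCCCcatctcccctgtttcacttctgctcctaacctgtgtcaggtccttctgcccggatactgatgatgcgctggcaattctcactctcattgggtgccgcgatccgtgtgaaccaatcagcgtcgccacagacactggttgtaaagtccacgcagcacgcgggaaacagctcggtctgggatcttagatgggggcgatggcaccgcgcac
RT1-A2 (chr20:4872621-4872920, plus strand): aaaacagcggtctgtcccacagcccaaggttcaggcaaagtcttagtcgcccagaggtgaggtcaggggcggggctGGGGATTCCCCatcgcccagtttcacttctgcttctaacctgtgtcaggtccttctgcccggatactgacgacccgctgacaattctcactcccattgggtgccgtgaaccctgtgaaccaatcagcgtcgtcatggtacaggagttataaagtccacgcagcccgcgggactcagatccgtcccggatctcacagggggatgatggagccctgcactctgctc
RT1-N2 (chr20:2646080-2646379, plus strand): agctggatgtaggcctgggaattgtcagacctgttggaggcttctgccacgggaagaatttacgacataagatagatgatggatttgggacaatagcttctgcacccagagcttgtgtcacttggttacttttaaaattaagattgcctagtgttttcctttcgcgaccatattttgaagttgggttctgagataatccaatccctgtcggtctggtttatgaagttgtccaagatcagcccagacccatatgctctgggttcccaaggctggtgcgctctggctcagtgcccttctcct

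Windows were found for 33 of the 41 member symbols. They were matched by symbol, so a window may belong to another locus than the counted row. Of the 26 class I windows, 24 lie on the strand of the counted row, and those of RT1-A3 and RT1-T24-2 lie on the other. The RT1-A3 window lies near that of RT1-A2, whereas the counted RT1-A3 row overlaps RT1-CE16 on the minus strand. The windows of Tap1, Psmb8 and Psmb9 also lie on the other strand than their rows, and that of Tap2 matches the strand of its minus-strand row. The interferon response element was present in 6 of 7 loading and processing windows, all but Psmb9, and in 3 of 26 class I windows, those of RT1-S2, RT1-N3 and RT1-S3, against 3.92% of 33469 windows of the same length. Only that exact form was counted. The windows of RT1-CE16, RT1-CE5 and RT1-A2 hold TTTCACTTC, which resembles it on the other strand and is not a match. The count therefore does not show that the other class I windows lack an interferon element. The NF-κB consensus was present in 3 of 7 loading windows (B2m, Tap1 and Tapbp) and in 7 of 26 class I windows, against 4.18% of all windows. Those 7 are RT1-CE10, RT1-CE16, RT1-A3, RT1-CE4, RT1-CE5, RT1-A1 and RT1-A2, and their symbols include rows that were higher and rows that were lower in the CLCF1 group. The run GGGGATTCCCC of the RT1-CE16 window, which reads the same on both strands, is in 6 member windows and in 0.0627% of all windows. The RT1-CE5 window lacks that run and keeps a match to the consensus, and the RT1-N2 window has neither of the 2 motifs marked in capitals. A match of letters is a description and not a binding site. Shorter class I promoter motifs were searched too: CCAAT, the Y box, was in 17 of 26 class I windows and 37.5% of all windows, and TGACG, part of the X2 box, in 8 of 26 and 21.2%.

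The RT1-A genes of the A region encode the classical heavy chains that present peptides to cytotoxic T cells. RT1-A2 (ENSRNOG00000030712, chr20:5374985-5378539, plus strand, as the table gives it, with no build named) had 0.753, 4.91 and 7.87 CPM in CLCF1 libraries, 10.0, 16.4 and 29.8 CPM in CO libraries and 20.5, 24.4 and 37.6 CPM in NC libraries. Every CLCF1 library lay below every CO library and every NC library, while CO and NC libraries overlapped. CLCF1 against CO gave a log2 fold change of -1.72 ± 0.37 (SE) (edgeR adjusted p = 0.00419) and -2.37 ± 0.37 for CLCF1 against NC (edgeR adjusted p = 0.000975). In libraries 1 and 2 alone it was -1.40 and -2.08, without passing. For CO against NC it was -0.65 ± 0.35 and did not pass (edgeR adjusted p = 0.229). The groups did not overlap for 6 of 26 members in CLCF1 against CO (7.12% of all genes), for 10 of 26 in CLCF1 against NC (5.63%) and for 1 of 26 in CO against NC (6.36%).

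RT1-A1 (ENSRNOG00000038999), whose gene model spans that of RT1-A2 on the same strand, did not follow it. It had 3.26, 7.85 and 13.6 CPM in CLCF1 libraries, 2.14, 4.99 and 13.1 in CO libraries and 4.21, 5.75 and 10.2 in NC libraries, and the groups overlapped in all 3 comparisons. Of its log2 fold changes none passed, and the value for CLCF1 against CO was 0.39 ± 0.39 (edgeR adjusted p = 0.524). RT1-A3 had no count in CO or NC libraries and 17, 0, 42, 3, 2 and 6 counts in CLCF1 libraries 1 to 6. It was at least 20.0-fold higher in CLCF1 than in CO libraries, with 3 counts over the CO group in place of 0, and at least 9.60-fold without CLCF1 library 3. Such bounds, here and below, take all 6 libraries at 0 as separate. Zeros shared by libraries 1 and 2 recurred in libraries 3 to 6 of the same group, so the bounds may be too high. Near-identical class I genes can share reads, and the models of RT1-A1 and RT1-A2, and of RT1-A3 and RT1-CE16, overlap on 1 strand, so how reads were divided among them is uncertain.

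The RT1-C genes lie in the C/E region and encode mostly non-classical heavy chains, and they held the largest fitted differences in either direction among the 26 members tested. RT1-CE16 (ENSRNOG00000047706, chr20:3791407-3794027, minus strand) had 22, 24 and 36.5 CPM in CLCF1 libraries, 3.37, 12.2 and 29.7 in CO libraries and 0 in all 6 NC libraries. The raw counts were 496, 492, 449, 416, 406 and 678 in CLCF1 libraries and 218, 216, 471, 53, 76 and 178 in CO libraries. Each CLCF1 and CO library thus had 53 counts or more. With 3 counts over the NC group in place of 0, the gene was at least 947-fold higher in CLCF1 libraries and at least 456-fold higher in CO libraries. With 1 library left out, the lowest of these bounds were 874-fold and 334-fold. As for RT1-A3, the bounds take the 6 libraries at 0 as separate and may be too high. Both comparisons passed (edgeR adjusted p = 2.25e-05 for CLCF1 against NC and 6.25e-05 for CO against NC), also in libraries 1 and 2 alone (edgeR adjusted p = 0.0018 and 0.002).

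Between the CLCF1 and CO groups, RT1-CE16 overlapped. Its log2 fold change was 1.06 ± 0.40 and did not pass (edgeR adjusted p = 0.086), although without CO library 3 it was 1.51 and did (edgeR adjusted p = 0.0112). DESeq2 gave an adjusted p of 0.0421. Rat class I haplotypes are known to differ in which genes they hold. The labels give no strain, so the haplotype of the rats and their group cannot be told apart.

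RT1-CE10 (ENSRNOG00000050210, chr20:154074-157861, minus strand) was the other class I row with more than 100 counts in each CO-exposed group and 0 in every NC library. It had 11, 58, 71, 24, 44 and 14 counts in CLCF1 libraries and 0, 35, 4, 8, 1 and 151 counts in CO libraries. The CO libraries thus ranged from no count to more than any CLCF1 library. Against NC it was at least 71.6-fold higher in CLCF1 libraries and at least 74.9-fold higher in CO libraries, or at least 21.6-fold without CO library 6. Both passed with edgeR (adjusted p = 0.0175 and 0.0137), and neither did in libraries 1 and 2 alone, where the fitted log2 values were 7.93 and 7.33.

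RT1-CE5 (ENSRNOG00000000723, chr20:4892702-4896991, minus strand) went the other way. It had 0, 2, 0, 0, 1 and 0 counts in CLCF1 libraries, 14, 78, 13, 43, 24 and 16 in CO libraries and 66, 58, 133, 56, 92 and 49 in NC libraries. In CPM its highest CLCF1 library, 0.0972, was below its lowest CO library, 0.819. The ratio of counts was 73.1-fold lower in CLCF1 than in CO libraries (95% exact interval 24.6 to 358, counting error only) and 156-fold lower than in NC libraries (53.2 to 761). The fitted log2 fold changes were -5.88 ± 0.72 (edgeR adjusted p = 0.000156) and -6.98 ± 0.71 (edgeR adjusted p = 2.45e-05), and in libraries 1 and 2 alone -5.64 and -5.92. Without CLCF1 library 2 they were -6.78 and -7.87. CO against NC did not pass, with -1.10 ± 0.46 (edgeR adjusted p = 0.118).

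The other RT1-C rows moved less or were near 0. RT1-CE4 had 1.34, 2.36 and 3.31 CPM in CLCF1 libraries, 1.51, 2.53 and 4.32 in CO libraries and 3.19, 4.10 and 4.92 in NC libraries, and its log2 value of -0.79 ± 0.25 for CLCF1 against NC lay just past the threshold (edgeR adjusted p = 0.052). RT1-CE7 had 2.64, 3.93 and 4.77 CPM in CLCF1 libraries, 0.441, 1.23 and 4.42 in CO libraries and 0.841, 2.28 and 2.98 in NC libraries. Its 1.13 ± 0.42 for CLCF1 against CO did not pass with edgeR (adjusted p = 0.0703) and did with DESeq2 (adjusted p = 0.0385). RT1-CE2, RT1-CE3 and RT1-CE6 had at most 7, 5 and 3 counts in any library. RT1-CE6 was found in no CLCF1 or CO library and in 5 NC libraries, and RT1-CE3 was found in 3 CLCF1 libraries and in no CO or NC library. The models of RT1-CE2, RT1-CE4 and RT1-CE7 are long and span other rows, so their counts are uncertain.

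**Figure D2:**
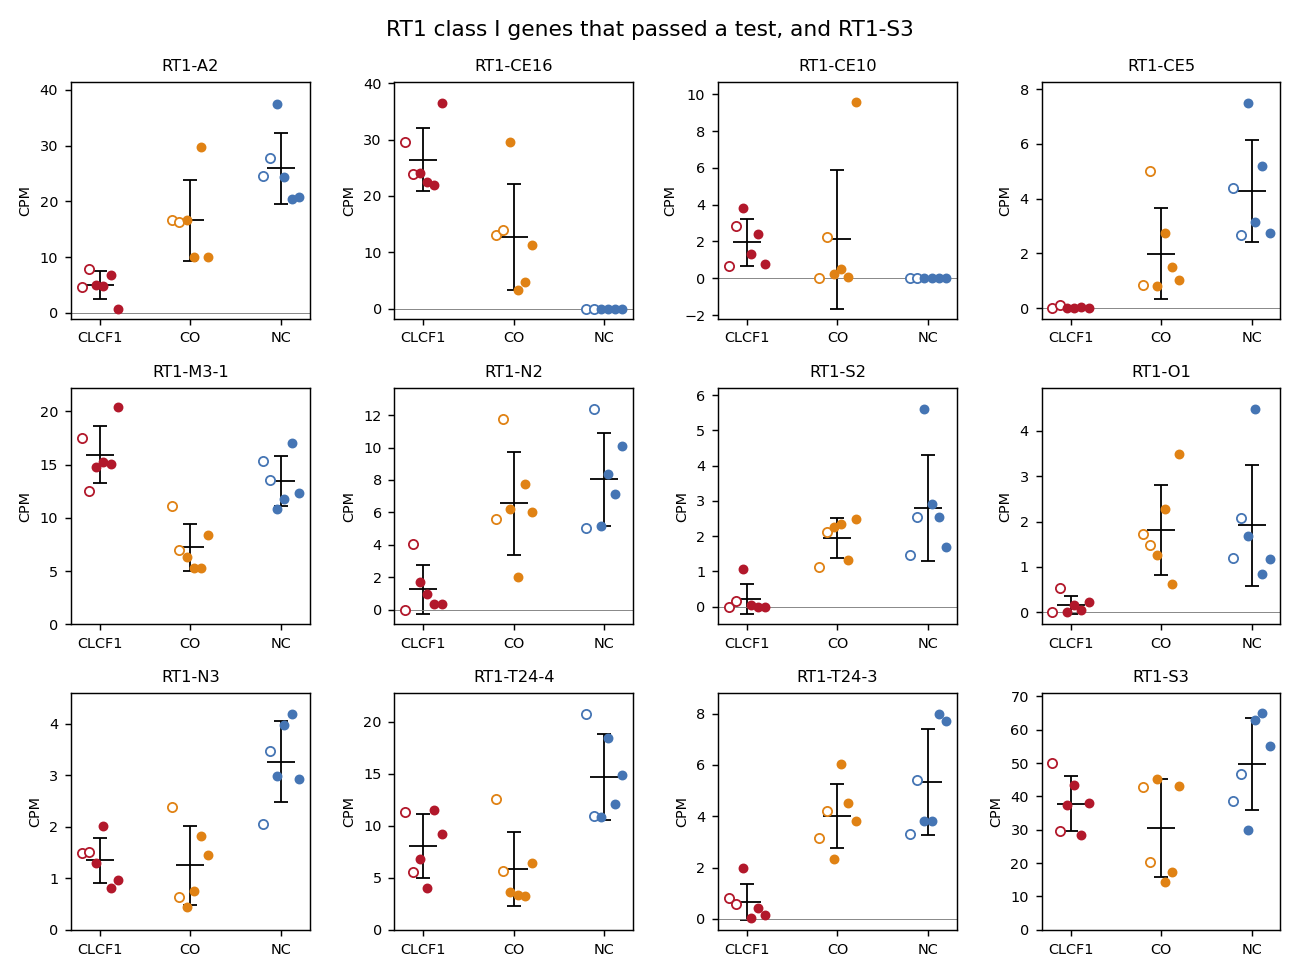
CPM by group of 12 class I rows, the 11 that passed in any comparison and RT1-S3, the row with the most counts. Each point is 1 library, open for libraries 1 and 2 and filled for libraries 3 to 6, and bars give the mean and SD over 6 libraries. RT1-CE16 is at 0 in NC and between 22 and 36.5 CPM in CLCF1, and RT1-A2 steps down to 0.753 to 7.87 CPM in CLCF1.

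RT1-M3-1, from the M region, encodes a heavy chain whose mouse counterpart presents formylated peptides to T cells, and it was lower in CO libraries than in both other groups. RT1-M3-1 (chr20:1814661-1818800, minus strand) had 12.5, 15.2 and 20.4 CPM in CLCF1 libraries, 5.29, 6.66 and 11.1 in CO libraries and 10.8, 12.9 and 17.1 in NC libraries. All CLCF1 libraries were above all CO libraries, and 1 CO library reached the NC range. On the log2 scale the change was 1.14 ± 0.19 for CLCF1 against CO (edgeR adjusted p = 0.000894) and -0.90 ± 0.19 for CO against NC (edgeR adjusted p = 0.00529). Libraries 1 and 2 alone gave 0.73 and -0.69, without passing. CLCF1 and NC libraries overlapped, with 0.24 ± 0.18 (edgeR adjusted p = 0.444).

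The remaining RT1-M rows were low. RT1-M6-1 averaged 1.24, 1.28 and 1.11 CPM and RT1-M6-2 averaged 2.48, 2.26 and 1.79 CPM in CLCF1, CO and NC libraries, and neither passed in any comparison. RT1-M1-4 had 1 to 7 counts in all 6 CO libraries, up to 3 in CLCF1 libraries and 0 in NC libraries, at least 9.03-fold higher in CO than in NC libraries. RT1-M1-5 was found in CLCF1 libraries alone, with 0, 6, 2, 13, 4 and 1 counts. It was at least 7.43-fold higher than in CO libraries, or at least 4.45-fold without CLCF1 library 4. RT1-M5, RT1-M1-2 and RT1-M10-2-ps had at most 2, 17 and 7 counts in any library.

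The next rows along the table's chromosome 20 are RT1-N2, RT1-S2, RT1-O1, RT1-N3, RT1-S3 and the RT1-T24 rows, all on the plus strand, and 5 of them were lower in CLCF1 than in NC libraries. RT1-N2 (chr20:3146856-3150852) had 0, 0.676 and 4.08 CPM in CLCF1 libraries, 2.03, 6.13 and 11.8 in CO libraries and 5.03, 7.74 and 12.4 in NC libraries. Its CLCF1 libraries 1 and 2 had 0 and 84 counts, and library 2 alone overlapped the CO group. The log2 fold change was -2.37 ± 0.63 for CLCF1 against CO (edgeR adjusted p = 0.0147) and -2.66 ± 0.63 for CLCF1 against NC (edgeR adjusted p = 0.0133). Without CLCF1 library 2 the values were -3.25 and -3.54, and libraries 1 and 2 alone gave -2.10 and -2.11.

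RT1-S2 (chr20:3155652-3157088) had 0, 3, 20, 1, 0 and 0 counts in CLCF1 libraries, 19, 33, 36, 37, 21 and 39 in CO libraries and 22, 55, 100, 52, 45 and 30 in NC libraries. In CPM the CLCF1 libraries lay below the other groups, with library 3 apart from its group at 1.08. Its log2 change was -3.14 ± 0.73 for CLCF1 against CO (edgeR adjusted p = 0.00757) and -3.66 ± 0.73 for CLCF1 against NC (edgeR adjusted p = 0.00503). Without CLCF1 library 3 these were -5.30 and -5.82, and in libraries 1 and 2 alone -4.29 and -4.60.

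RT1-O1 (chr20:3162039-3162939), which the table classes as an unprocessed pseudogene, had 0, 11, 0, 3, 1 and 4 counts in CLCF1 libraries, 29, 23, 20, 36, 10 and 55 in CO libraries and 18, 45, 30, 80, 15 and 21 in NC libraries. No CLCF1 library reached the CO or NC range in CPM. Its log2 fold change was -3.39 ± 0.66 for CLCF1 against CO (edgeR adjusted p = 0.00272) and -3.47 ± 0.66 for CLCF1 against NC (edgeR adjusted p = 0.0036). Without CLCF1 library 2 they were -4.26 and -4.34, and in libraries 1 and 2 alone -2.54 and -2.58.

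RT1-T24-3 (chr20:3226352-3233694) had 0.0542, 0.508 and 1.99 CPM in CLCF1 libraries, 2.33, 4.00 and 6.03 in CO libraries and 3.31, 4.62 and 7.97 in NC libraries. Again the CLCF1 libraries lay below both other groups, which overlapped. The fitted log2 change was -2.56 ± 0.51 for CLCF1 against CO (edgeR adjusted p = 0.00287) and -2.97 ± 0.51 for CLCF1 against NC (edgeR adjusted p = 0.00183). Without CLCF1 library 3 the values were -3.26 and -3.68, and in libraries 1 and 2 alone -2.38 and -2.63. RT1-T24-1 had no count in CLCF1 libraries, 2 to 6 in each CO library and 0 to 9 in NC libraries. It was at least 8.95-fold lower in CLCF1 than in CO libraries and at least 5.86-fold lower than in NC libraries, or at least 3.30-fold without NC library 4.

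RT1-N3 and RT1-T24-4 differed from these rows in that they were lower in CO than in NC libraries. RT1-N3 (chr20:3167079-3170945) had 0.812, 1.39 and 2.01 CPM in CLCF1 libraries, 0.441, 1.11 and 2.39 in CO libraries and 2.05, 3.22 and 4.18 in NC libraries. All CLCF1 libraries were below all NC libraries, and 1 CO library lay within the NC range. The log2 fold change was -1.37 ± 0.36 for CO against NC (edgeR adjusted p = 0.0175) and -1.28 ± 0.35 for CLCF1 against NC (edgeR adjusted p = 0.0296), and in libraries 1 and 2 alone -0.87 and -0.90. The CLCF1 call was lost without CLCF1 library 3, 5 or 6 or NC library 4 or 5. RT1-T24-4 (chr20:3189473-3197457) had 4.01, 8.01 and 11.5 CPM in CLCF1 libraries, 3.27, 4.66 and 12.6 in CO libraries and 10.8, 13.5 and 20.7 in NC libraries. Its log2 fold change was -1.33 ± 0.33 for CO against NC (edgeR adjusted p = 0.0151; -0.81 in libraries 1 and 2 alone), and CO library 1 alone reached the NC range. For CLCF1 against NC it was -0.86 ± 0.33 and did not pass (edgeR adjusted p = 0.104).

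RT1-S3 (chr20:3176107-3179818) lies between them and was the class I row with the most counts in each group. Per kb of the table's gene length it averaged 21.4 CPM in CLCF1 libraries, 17.3 in CO libraries and 28.1 in NC libraries, against 24.3, 11.6 and 0 for RT1-CE16 and 3.00, 9.92 and 15.5 for RT1-A2. RT1-S3 had 28.5, 37.7 and 50.1 CPM in CLCF1 libraries, 14.2, 31.7 and 45.3 in CO libraries and 29.8, 50.8 and 65.0 in NC libraries. All groups overlapped, and no comparison passed, with -0.70 ± 0.28 for CO against NC (edgeR adjusted p = 0.0987). RT1-T18 was sparse, with up to 8 counts in CLCF1 libraries, 1 in CO libraries and 7 in NC libraries. RT1-T24-2 had up to 5, 16 and 16 counts in the same order, and its CLCF1 libraries lay below the NC libraries in CPM.

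The level summed over all 33 class I rows does not depend on how the counted reads were divided among its rows. Reads left uncounted because they matched several genes would still be missing from it, and the counter is not stated. The summed level was 104, 117 and 141 CPM in CLCF1 libraries, 65.5, 117 and 131 in CO libraries and 135, 146 and 158 in NC libraries. All CO libraries lay below all NC libraries, and the CLCF1 libraries overlapped with both. The log2 ratio of the group means was 0.13 for CLCF1 against CO, -0.30 for CLCF1 against NC and -0.44 for CO against NC, given as a description with no test. For CO against NC this is close to the median of -0.41 over the rows tested. For CLCF1 against NC the median was further down, at -0.79, and for CLCF1 against CO it was -0.04, opposite in sign to the sum. With 5 other chromosome 20 rows whose descriptions name the class I domain, the ratios were 0.18, -0.23 and -0.41, and CO and NC libraries then overlapped. Without RT1-S3 they were 0.06, -0.26 and -0.32.

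The make-up of the sum differed between the groups too. RT1-C rows averaged 34.9 CPM in CLCF1 libraries, 21.5 in CO libraries and 10.8 in NC libraries. Of this, RT1-CE16 alone made up 26.4, 12.7 and 0 CPM, and the other RT1-C rows together were not higher in CLCF1 than in NC libraries. RT1-A rows went down in CLCF1 libraries, with averages of 13.4, 22.5 and 32.2. The RT1-N, RT1-O and RT1-T rows were also lower in CLCF1 libraries, at 2.59, 0.161 and 9.07 CPM, against 11.3, 1.91 and 20.9 in NC libraries. For RT1-A, RT1-N, RT1-O and RT1-T all CLCF1 libraries lay below all NC libraries, and for RT1-C all lay above. As a share of the class I counts, RT1-CE16 made up a median of 21.1% in CLCF1 libraries, 9.37% in CO libraries and 0 in NC libraries, and RT1-A2 made up 4.19%, 14.1% and 16.8%. RT1-M and RT1-S rows were lowest in CO libraries, at averages of 20.3, 11.6 and 16.7 CPM for RT1-M and 38.1, 32.5 and 52.5 CPM for RT1-S in the CLCF1, CO and NC groups. RT1-S, most of it RT1-S3, was the largest part of the sum in each group.

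**Figure D3:**
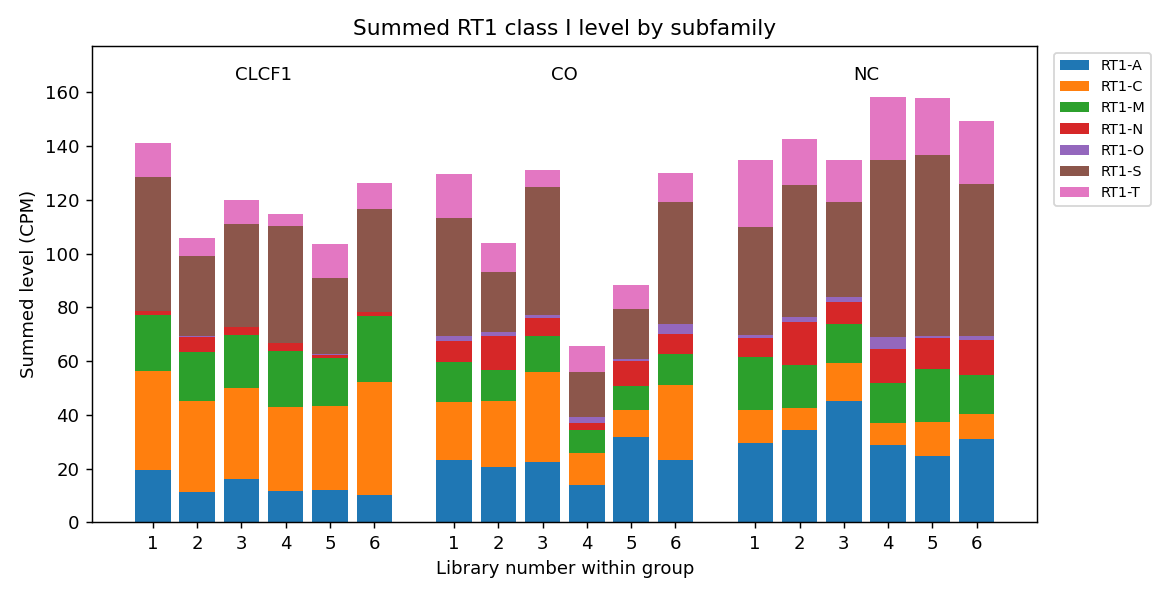
Summed CPM of all 33 RT1 class I rows in each library, stacked by subfamily. The whole bar spans 104 to 141 CPM in CLCF1, 65.5 to 131 in CO and 135 to 158 in NC. In CLCF1 relative to NC the RT1-C part grows through RT1-CE16, and the RT1-A and RT1-T parts shrink.

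The light chain and the loading genes showed another pattern, with a modest rise of some of them in CLCF1 against CO libraries. B2m (ENSRNOG00000017123, chr3:114087287-114093309, plus strand) had 548, 683 and 776 CPM in CLCF1 libraries, 403, 442 and 568 in CO libraries and 438, 564 and 880 in NC libraries. Of the CLCF1 libraries only library 2 lay within the CO range. The log2 fold change for CLCF1 against CO was 0.55 ± 0.15 (edgeR adjusted p = 0.018), and in libraries 1 and 2 alone it was 0.31 without passing. CO against NC was -0.40 ± 0.15 and did not pass (edgeR adjusted p = 0.0863), but did without NC library 6 (-0.48, edgeR adjusted p = 0.0453). Per kb, B2m averaged 368 CPM in CLCF1 libraries, 252 in CO libraries and 332 in NC libraries, above each heavy chain.

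Tapbp (chr20:5468056-5476007, minus strand) was the loading gene with differences in both comparisons of the CLCF1 group. It had 18.2, 25.4 and 30.7 CPM in CLCF1 libraries, 7.30, 13.2 and 18.9 in CO libraries and 11.6, 15.0 and 15.6 in NC libraries. All CLCF1 libraries were above all NC libraries, and 1 CO library reached the lowest CLCF1 library. On the log2 scale Tapbp differed by 0.96 ± 0.20 for CLCF1 against CO (edgeR adjusted p = 0.0037) and 0.86 ± 0.20 for CLCF1 against NC (edgeR adjusted p = 0.0115), and in libraries 1 and 2 alone 0.49 and 0.64. CO and NC libraries did not differ beyond their spread, with -0.10 ± 0.20 (edgeR adjusted p = 0.782).

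The transporter subunits did not pass in any comparison. Tap1 (chr20:3979035-3989669, plus strand) had 7.19, 11.2 and 16.3 CPM in CLCF1 libraries, 5.47, 7.52 and 14.2 in CO libraries and 7.52, 8.26 and 9.61 in NC libraries, and its largest log2 value was 0.51 ± 0.25 for CLCF1 against CO (edgeR adjusted p = 0.157). Tap2 is listed once beside Psmb8, at chr20:3995544-4009587 on the plus strand, and once at chr20:5198258-5212624 on the minus strand. The libraries of 1 group divided their Tap2 counts very differently between these rows. On the plus-strand row, libraries 1 and 2 of a group differed 5.89-fold in CLCF1, 5.93-fold in CO and 5.36-fold in NC. Summed over both rows, Tap2 averaged 8.43 ± 4.23 CPM in CLCF1 libraries, 7.51 ± 3.41 in CO libraries and 6.53 ± 2.5 in NC libraries (SD, n = 6 each), and all groups overlapped.

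Of the immunoproteasome subunits, Psmb8 passed in 1 comparison. Psmb8 (chr20:3990613-3993769, plus strand) had 3.74, 8.10 and 10.6 CPM in CLCF1 libraries, 1.46, 2.28 and 6.99 in CO libraries and 2.97, 5.25 and 15.7 in NC libraries. CO library 1 lay within the range of both other groups, CO library 2 within the NC range, and the other 4 CO libraries below every CLCF1 and NC library. The log2 fold change was 1.38 ± 0.46 for CLCF1 against CO (edgeR adjusted p = 0.0447; 0.56 in libraries 1 and 2 alone). That call was lost when any of CLCF1 libraries 2, 3, 5 and 6, CO libraries 2 to 6 or NC libraries 2 and 5 was left out, with an adjusted p up to 0.0894. For CO against NC it was -1.23 ± 0.46 (edgeR adjusted p = 0.082), and without CO library 1 it was -1.69 and passed (edgeR adjusted p = 0.0196).

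Psmb9 (chr20:3973420-3978845, minus strand), whose start lies 189 bases from that of Tap1 in the table, had 7.19, 12.1 and 20.5 CPM in CLCF1 libraries, 5.02, 8.23 and 15.3 in CO libraries and 5.64, 8.06 and 25.7 in NC libraries. Psmb10 (chr19:37909546-37912027, minus strand) had 31.7, 42.4 and 56.5 CPM in CLCF1 libraries, 26.7, 32.0 and 66.2 in CO libraries and 20.9, 39.3 and 45.9 in NC libraries. In both genes the groups overlapped and no comparison passed. Nlrc5 (chr19:10905542-10976396, minus strand), the activator of the pathway, was rare at 1 to 26 counts a library. It had 0.0972, 0.540 and 1.31 CPM in CLCF1 libraries, 0.0629, 0.255 and 0.837 in CO libraries and 0.278, 0.479 and 1.46 in NC libraries. No difference in Nlrc5 was detectable at this depth, and its log2 value for CLCF1 against CO was 0.86 ± 0.57 (edgeR adjusted p = 0.322). In CO against NC, 0 of the 9 loading and processing rows passed with edgeR, and DESeq2 called 1, Psmb8 (adjusted p = 0.0375). With edgeR 3 had an unadjusted p under 0.05, a cut for which the share of all genes is not given.

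**Figure D4:**
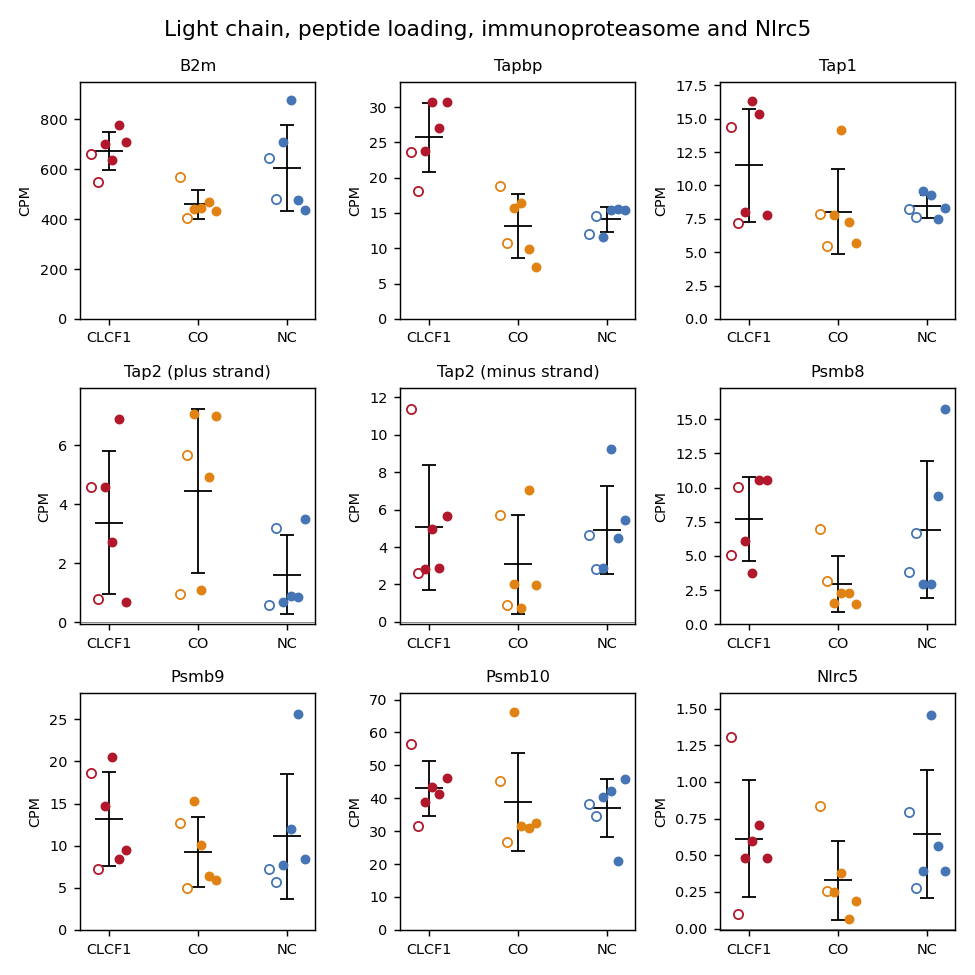
CPM by group of the 9 loading and processing rows. Each point is 1 library, open for libraries 1 and 2 and filled for libraries 3 to 6, and bars give the mean and SD over 6 libraries. Tapbp is above 18 CPM in all CLCF1 libraries, B2m is between 548 and 776 CPM in CLCF1 and between 403 and 568 CPM in CO, and both Tap2 rows split within each group.

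**Figure D5:**
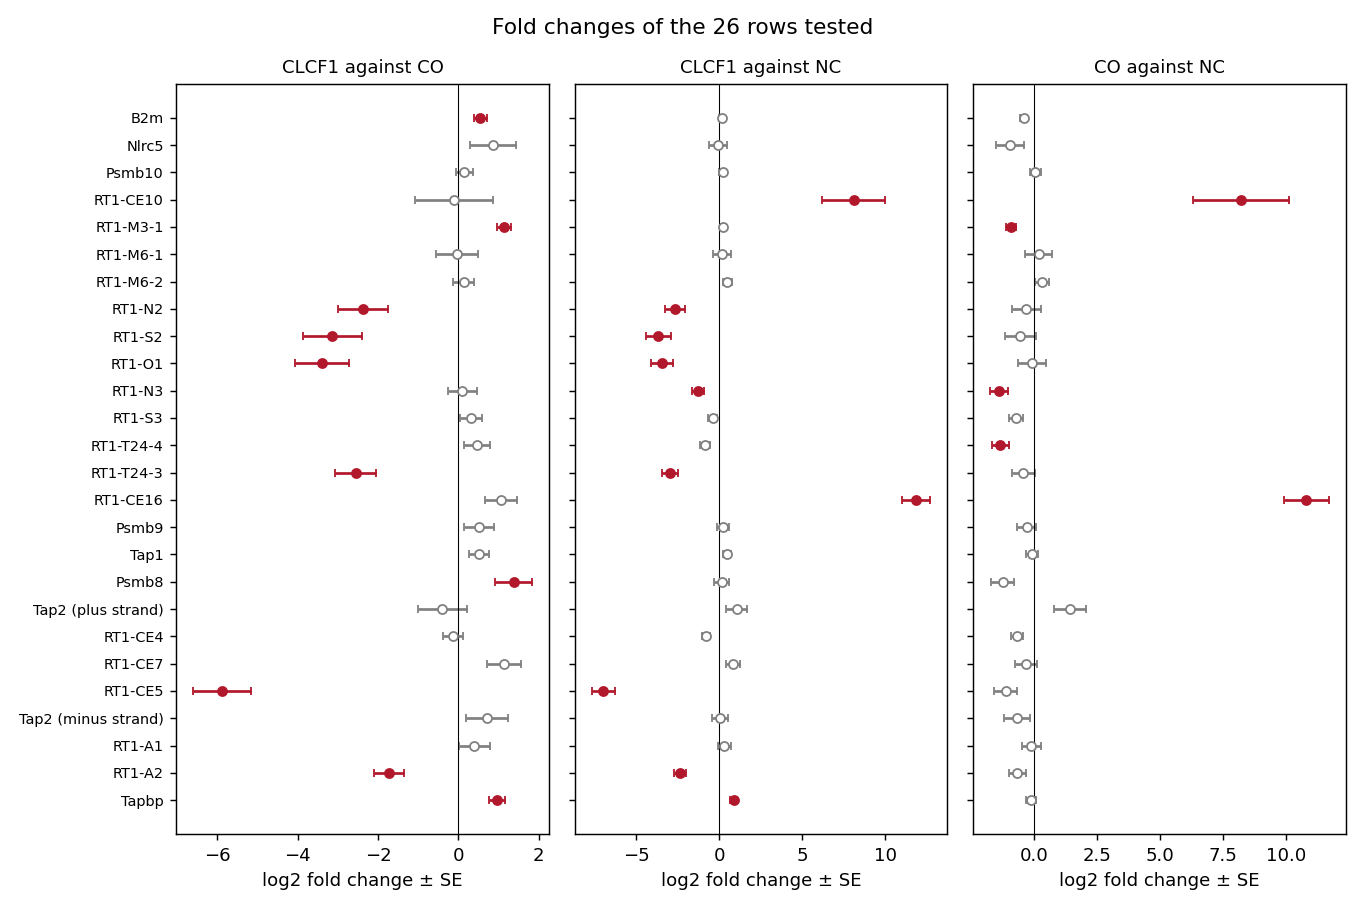
log2 fold change with its SE of the 26 members tested, in table order, for CLCF1 against CO, CLCF1 against NC and CO against NC. Red points passed edgeR's test at an adjusted p of 0.05; the scale of each panel differs, and the values near 8 to 12 are fits against a group with no count and depend on the prior count.

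Other genes of the pathway passed the test in each comparison. Of 36 tested genes of peptide loading, the standard proteasome, class I transcription, interferon signalling and class I-like molecules, 3 were higher and 1 lower in CLCF1 against CO (11.1%, where 17% of all genes passed), 3 higher in CLCF1 against NC (8.33%, where 9.26% did), and 4 higher and 3 lower in CO against NC (19.4%, where 12.7% did). The chaperone gene Calr was higher in CO than in NC libraries by 0.43 ± 0.13 on the log2 scale (edgeR adjusted p = 0.041; 0.28 in libraries 1 and 2 alone). Pdia3, an oxidoreductase of the loading complex, was higher than in NC libraries by 0.40 ± 0.11 in CLCF1 libraries (0.30 in libraries 1 and 2 alone) and by 0.36 ± 0.11 in CO libraries (0.18). Nfyb, a subunit of the factor that binds the Y box, was higher than in NC libraries by 0.49 ± 0.11 in CLCF1 libraries (0.33 in libraries 1 and 2 alone) and by 0.61 ± 0.11 in CO libraries (0.57). The standard proteasome subunit Psmb5 was higher in CO than in NC libraries by 0.31 ± 0.10 (0.21 in libraries 1 and 2 alone). Psmb7, another such subunit, fell by 0.58 ± 0.19 in CLCF1 against CO libraries (-0.43 in libraries 1 and 2 alone). Ifnar1, a subunit of the interferon receptor, fell by 0.52 ± 0.16 in CO against NC libraries (-0.24 in libraries 1 and 2 alone). Irf1, a transcription factor of the interferon response, did not pass in any comparison, and Ifng and Ifnb1 had 0 counts in all groups. Of the class I-like genes outside the RT1 names, Fcgrt and Cd1d1 were lower in CO libraries than in both other groups, as RT1-M3-1 was. Fcgrt, an antibody receptor that pairs with B2m, averaged 50.5 ± 3.60 CPM in CLCF1 libraries, 33.9 ± 5.40 in CO libraries and 50.7 ± 7.61 in NC libraries (SD, n = 6 each). Its log2 fold change was 0.58 ± 0.12 for CLCF1 against CO (edgeR adjusted p = 0.0037) and -0.58 ± 0.12 for CO against NC (edgeR adjusted p = 0.00517), and in libraries 1 and 2 alone 0.37 and -0.48. Cd1d1, which presents lipids, averaged 3.80, 0.552 and 2.58 CPM in CLCF1, CO and NC libraries and passed in the same comparisons, with 2.77 ± 0.50 (edgeR adjusted p = 0.00183) and -2.21 ± 0.50 (edgeR adjusted p = 0.00869), and in libraries 1 and 2 alone 2.52 and -1.77. Hfe, an iron regulator of class I fold, averaged 9.58 ± 6.16, 0.757 ± 0.701 and 2.02 ± 0.931 CPM and was higher in CLCF1 than in CO libraries (3.64 ± 0.61, edgeR adjusted p = 0.00106) and than in NC libraries (2.24 ± 0.56, edgeR adjusted p = 0.0171), with 2.33 and 1.45 in libraries 1 and 2 alone.

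Markers of several cell types moved with the groups in these bulk libraries, in which fewer cells of a type and less RNA per cell cannot be told apart. The summed choroid plexus markers Ttr, Folr1, Kl and Clic6 were at 5878, 10.1, 3624, 3794, 754 and 2542 CPM in CLCF1 libraries 1 to 6, against 0.566 to 33.9 in CO libraries and 1.74 to 104 in NC libraries, and all 4 genes passed in both comparisons of the CLCF1 group. In CLCF1 library 2, whose choroid plexus sum lay within the CO range, RT1-M3-1 at 12.5 CPM was the lowest of its group and above every CO library. B2m at 548 CPM and Tapbp at 18.2 CPM of that library were also the lowest of their group, and lay within the CO range near its top. Psmb8, which also passed in CLCF1 against CO, was not at its lowest there (10.1 CPM). Of the rows lower in CLCF1 than in NC libraries, RT1-A2 (7.87 CPM), RT1-N2 (4.08), RT1-O1 (0.535) and RT1-CE5 (0.0972) were highest there within the group. RT1-S2, RT1-N3 and RT1-T24-3 were highest in other CLCF1 libraries. Of 9 microglia and macrophage markers, edgeR and DESeq2 each called 0 in CLCF1 against CO, 0 in CLCF1 against NC and 1 in CO against NC. At an unadjusted p under 0.05, with no share of all genes given, these markers numbered 1, 1 and 2. They had sums of 323 to 376, 275 to 337 and 295 to 381 CPM in CLCF1, CO and NC libraries. Fibroblast and meningeal markers summed to 216 to 364, 99.2 to 326 and 297 to 464 CPM, and red cell markers to 51.2 to 219, 1.02 to 37.3 and 12.1 to 683 CPM. T and NK cell markers summed to 2.43 to 8.81, 1.09 to 4.06 and 1.57 to 4.52 CPM, and among them Cd8a averaged 2.52, 0.0509 and 0.220 CPM. Only 2 of them were tested, and Cd8a alone passed, in both comparisons of the CLCF1 group. Of 5 endothelial markers tested, 1 was higher in CLCF1 than in CO libraries and 1 lower in CO than in NC libraries, and Cldn5, which defines that type, was at 0 in all groups. Neuron markers summed to 4719 to 5701, 5291 to 5942 and 4153 to 4702 CPM in CLCF1, CO and NC libraries, so that all CLCF1 and all CO libraries lay above all NC libraries. Of 6 neuron markers, Nefl was lower in CLCF1 than in CO libraries, Syn1 was higher in CLCF1 than in NC libraries, and Snap25 and Syn1 were higher in CO than in NC libraries. Of 4 astrocyte markers, Aldh1l1 was lower in CLCF1 and in CO than in NC libraries, and of 4 oligodendrocyte markers, Mag was lower in CLCF1 than in CO libraries. The part of these markers in the class I and loading results was not tested.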

How the data were processed

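The authors deposited 1 table of raw gene counts, not normalized, that covers the 18 libraries. For the aligner, the counter and strandedness, nothing is stated in the labels. Per the submitters' processing notes the builds were GRCm38 and mm10, which are of mouse, although identifiers and symbols are of rat, so coordinates are given as in the table. Per the labels, each library was made from 1.3 µg of total RNA.

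Counts of all libraries entered 1 quasi-likelihood fit in edgeR 4.0.16 (R 4.3.3) with TMM scaling and filterByExpr, which kept 16581 of 34873 rows, and p-values were adjusted over these by Benjamini-Hochberg. The SE is the log2 fold change over the square root of F. Folds against a group with no count use 3 counts over the group, and with 1 to 3 counts a 95% exact interval, for counting error only. Both take the libraries of a group as separate, which the shared zeros of the libraries leave uncertain. DESeq2 1.42.0 was an alternative. The fit was checked on simulated counts. Named with values were all loading genes, class I rows that passed or were at 0 in 1 group and at 60 or more counts in another, and the 5 with the highest mean. Other class I rows whose values appear were chosen after these had been seen. Members, lists and tests were chosen with earlier results of these data known.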

Additional observations from a re-analysis of the deposited data

Results flagged for a closer look

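In 10 of 69 groups of 6 libraries examined, 1 library stood apart from the other 5 by Dixon's criterion. For normally distributed values chance gives about 1 in 20 groups. In each flagged case the library was the highest, and low counts are skewed, so that rate may not apply here. In the CLCF1 group these were RT1-S2 in library 3 (1.08 CPM, next 0.146) and the minus-strand row of Tap2 in library 1 (11.4 CPM, next 5.65). In the CO group they were RT1-CE10 in library 6 (9.59 CPM, next 2.25), RT1-A2 in library 5 (29.8 CPM, next 16.7), RT1-T24-4 in library 1 (12.6 CPM, next 6.41), Tap1 in library 4 (14.2 CPM, next 7.89) and Psmb8 in library 1 (6.99 CPM, next 3.16). In the NC group they were RT1-S2 in library 3 (5.62 CPM, next 2.92), RT1-O1 in library 4 (4.49 CPM, next 2.08) and Psmb9 in library 5 (25.7 CPM, next 12). Their causes were not tested. Without CO library 6 the fitted log2 fold change of RT1-CE10 for CO against NC was 6.46, against 8.21 with it, and still passed (edgeR adjusted p = 0.0229).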

How the results depend on the processing

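The number of members that passed kept within 1.5 times of 10 (CLCF1 against CO), 10 (CLCF1 against NC) and 5 (CO against NC) under other scalings, filters, tools and subsets, with 2 exceptions. With libraries 1 and 2 alone it was 0, 1 and 1, with fewer samples by construction. With no low-count filter it was 17 of 38 rows for CLCF1 against NC, including the same 10. Leaving out 1 library gave 9 to 11, 9 to 12 and 5 to 6. The log2 ratio of the summed class I level ranged from 0.02 to 0.20, -0.36 to -0.27 and -0.50 to -0.33 without 1 library. Same-numbered libraries deviated together by r = -0.0283 to 0.149 in 18 pairs, 1 of them over 0.1, and 7 of 18 libraries correlated best with their own number. Every library numbered 1 or 2 was among these, with r = 0.0551 between CLCF1 and CO library 1 and 0.149 between CLCF1 and CO library 2. The correlations were weak, and whether the numbers pair the samples is not settled by them. With library number as a block the counts were 12, 9 and 5. Shares of all genes are given only for the main fit, DESeq2 and libraries 1 and 2 alone. Member counts under the other settings are thus not set against all genes.

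Directions turned only where no test was passed, on the log2 scale. In libraries 1 and 2 alone this was Nlrc5 for CLCF1 against NC (0.38) and CO against NC (0.037), Psmb10 (-0.029), Psmb9 (0.45) and Tapbp (0.15) for CO against NC, and RT1-CE10 (0.61), RT1-N3 (-0.032) and RT1-T24-4 (-0.12) for CLCF1 against CO. It was also RT1-M6-1 (0.40), RT1-M6-2 (-0.039) and RT1-CE4 (0.11) for CLCF1 against CO, and RT1-M6-1 (-0.052) and RT1-CE7 (0.0024) for CO against NC. In libraries 3 to 6 alone it was Psmb9 (-0.022), Psmb8 (-0.0069) and the minus-strand row of Tap2 (-0.44) for CLCF1 against NC, and Tap1 for CO against NC (0.0072). The block turned RT1-CE10 (1.57) and RT1-M6-1 (0.29) for CLCF1 against CO and Tap2 on the minus strand for CLCF1 against NC (-0.079). Over the fits without 1 library, values of both signs spanned -0.46 to 0.34 for Nlrc5, -0.021 to 0.55 for Psmb8 and -0.38 to 0.32 for Tap2 on the minus strand (CLCF1 against NC). They spanned -0.41 to 1.65 for RT1-CE10 and -0.078 to 0.39 for RT1-N3 (CLCF1 against CO), and -0.15 to 0.16 for Psmb10, -0.47 to 0.17 for Psmb9, -0.37 to 0.37 for RT1-O1, -0.30 to 0.023 for Tap1 and -0.23 to 0.025 for Tapbp (CO against NC). RT1-M6-1 had values of both signs in each comparison, RT1-CE4 in CLCF1 against CO and RT1-A1 in CO against NC. The causes were not tested. Depth limits Nlrc5, at 1 to 26 counts, and the 16 members that were not tested.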

Other observations

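Outside the RT1 names, 5 rows on chromosome 20 have descriptions that name the class I domain, and 4 of them had counts. RGD1562652 had 656 counts over the CLCF1 group, 318 over the CO group and 239 over the NC group. LOC100364500 had 178, 36 and 4, and AC108572.1 had 91, 1 and 9. LOC102546590 had 0, 0 and 5. They were listed after the class I values had been seen, and their summed level was higher in all CLCF1 libraries than in all NC libraries, by 1.72 on the log2 scale. Cd8a, a marker of cytotoxic T cells, was higher in CLCF1 than in CO libraries by 5.42 ± 0.57 (edgeR adjusted p = 6.37e-05) and than in NC libraries by 3.44 ± 0.47 (edgeR adjusted p = 0.000403), also in libraries 1 and 2 alone in direction (4.51 and 2.99). It was 1 of 2 T and NK cell markers tested. The other went down in both comparisons without passing, and the medians over both were 2.44 and 1.15. S100a9, 1 of 2 neutrophil markers tested, was higher in CLCF1 than in CO libraries by 1.93 ± 0.60 (edgeR adjusted p = 0.0327) and than in NC libraries by 2.65 ± 0.63 (edgeR adjusted p = 0.0138), with 1.21 and 2.26 in libraries 1 and 2 alone. The other neutrophil marker did not pass in either.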
